A study of Mus musculus with 16 samples.

Results

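Renin-angiotensin and endothelin signalling in the pressure-overloaded mouse heart was described through 9 genes chosen by name: Agt, Ace, Agtr1a and Nr3c2 on the renin-angiotensin and mineralocorticoid side, and Edn1, Edn3, Ece1, Ednra and Ednrb on the endothelin side. They were found by matching the Ensembl identifiers of the deposited gene count table to symbols, which gave 9 of its 55487 genes, and all 9 were among the 18275 genes that passed the filter on low counts. The study deleted Cardinal (Gm12295), a long noncoding RNA enriched in heart muscle, and asked how the deleted heart responds to transverse aortic constriction (TAC), a ligature that narrows the aorta and raises the load on the left ventricle. Poly(A)-selected RNA from the apex of the heart was sequenced 4 weeks after surgery in 16 mice, 4 per group. Ctrl sham and Ctrl TAC mice were labelled WT, and KO sham and KO TAC mice were labelled CARDINAL-KO. Sham mice had the same thoracotomy without the ligature. The mice of the study were males. Their age and strain, whether they were littermates, and how the deletion was made were not given in the sources used here. Each library came from a different animal number, so that the spread within a group includes that between mice.

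A pair of libraries stood apart. Ctrl TAC 2 carried RNA of other tissues: the summed level of 6 hepatocyte markers was 73.5 CPM (counts scaled to the size of the library) against 3.88 to 8.69 CPM in the other 15 libraries, with Alb, the plasma albumin gene of liver, at 48.6 CPM. The library labelled KO TAC 4 held 377 counts of Cardinal (4.55 CPM), whereas the other 7 knockout libraries held 17 to 35 counts and the 8 control libraries 173 to 456 counts. It is therefore called by its label below, and KO TAC stands for the 4 libraries so labelled. The called changes of the 9 genes after TAC, and the differences between KO TAC and Ctrl TAC in Agt and Ednrb, are also given without these libraries. The animal numbers of Ctrl TAC 2, 3 and 4 and of the library labelled KO TAC 4 start with 25, and those of the other 12 libraries do not. What the number series stands for is not given, so values within each series are set beside the differences between KO TAC and Ctrl TAC. Library totals ran from 53169437 to 79404714 counts. The 10 cardiomyocyte markers summed to 51700 to 74000 CPM. Of 4 atrial markers, Sln and Myl7 did not pass the filter, whereas Myl4 (group means of 1.34 to 1.91 CPM) and Nppa did. These markers do not test the apex label further. Nppa, which rises with load, was 7.87-fold higher after TAC in Ctrl and 15.9-fold higher in KO hearts.

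Angiotensinogen, the product of Agt, is the only precursor of the angiotensins. Renin cuts it to angiotensin I, and angiotensin-converting enzyme, encoded by Ace and anchored on endothelial cells, cuts that to angiotensin II, which raises blood pressure and promotes hypertrophy and fibrosis through the receptor encoded by Agtr1a. Angiotensin II also drives adrenal release of aldosterone, the ligand of the mineralocorticoid receptor encoded by Nr3c2. Endothelins are short peptides cut from larger precursors (Edn1, Edn3) by endothelin-converting enzyme (Ece1). The receptor encoded by Ednra constricts vessels and binds the product of Edn3 poorly, whereas the receptor encoded by Ednrb binds all endothelins alike, clears them from blood and, on endothelium, releases nitric oxide.

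Of these genes, Ace, Edn3 and Ednrb were the ones that rose after TAC. The 250 bases before the start of each in RefSeq (mouse build GRCm38.p6) are shown so that the sequence ahead of each gene that rose can be seen. The window of Nr3c2, which fell, is not shown. RefSeq windows were matched for 8 of the 9 genes, all but Agtr1a. Both strands were searched for AP-1 (TGANTCA), CRE (TGACGTCA), the E-box (CACGTG), the GC box (GGGCGG), the GATA factor motif (either of AGATAA and TGATAA), the TATA box (TATAAA), the single arm of the corticoid receptor element (AGAACA) and the CArG box of serum response factor, and capitals mark the matches. The Ace window is chr11:105967698-105967947 on the plus strand, that of Edn3 is chr2:174760369-174760618 on the plus strand, and that of Ednrb is chr14:103843702-103843951 on the minus strand.
Ace: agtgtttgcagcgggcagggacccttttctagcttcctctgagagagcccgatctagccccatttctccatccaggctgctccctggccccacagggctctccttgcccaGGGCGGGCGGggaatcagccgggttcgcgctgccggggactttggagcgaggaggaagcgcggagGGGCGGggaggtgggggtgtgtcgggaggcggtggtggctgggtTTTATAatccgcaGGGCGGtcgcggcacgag
Edn3: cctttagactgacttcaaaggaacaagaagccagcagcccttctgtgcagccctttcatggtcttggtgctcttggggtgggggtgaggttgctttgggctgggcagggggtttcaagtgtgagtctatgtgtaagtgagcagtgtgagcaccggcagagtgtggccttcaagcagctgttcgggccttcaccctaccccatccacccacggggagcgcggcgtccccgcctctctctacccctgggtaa
Ednrb: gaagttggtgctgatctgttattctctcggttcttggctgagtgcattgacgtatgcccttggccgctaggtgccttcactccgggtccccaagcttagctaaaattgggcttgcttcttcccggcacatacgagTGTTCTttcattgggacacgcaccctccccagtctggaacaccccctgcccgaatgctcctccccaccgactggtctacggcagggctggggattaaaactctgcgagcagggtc
The Ace window was GC-rich (67.2% GC and 19 CpG, against medians of 52.4% and 6 over 32851 windows of all genes) and held 4 GC boxes, of which 2 overlap, and a TATA match on the reverse strand (TTTATA) at bases -31 to -26 from the start. GC boxes occurred in 32.7% of all windows and TATA matches in 12.4%. The window of Nr3c2 was also GC-rich (68.4% GC, 17 CpG) and held GC boxes. RefSeq gives Ace 2 starts, and the first is shown. The Edn3 window (59.2% GC, 7 CpG) held no match to any of these letters. The Ednrb window (56.8% GC, 11 CpG) held the corticoid receptor letters on the reverse strand (TGTTCT) at bases -115 to -110, a match found in 16.1% of all windows. It lies within the span of the GENCODE gene, whose annotation starts further upstream, and overlaps no annotated exon. Of the remaining motifs, AP-1 occurred in 6.75%, GATA in 16.6%, CRE in 1.55%, E-box in 6.02% and CArG box in 1.47% of all windows. A match of letters is a description and not a binding site.

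At 4 weeks after surgery, the same 4 genes were called between TAC and sham in hearts labelled WT and in hearts labelled CARDINAL-KO. In Ctrl hearts, 3 genes rose (Ace, Edn3, Ednrb) and 1 fell (Nr3c2) after TAC, or 4 of 9, where 20.0% of all genes tested were called by edgeR's quasi-likelihood test at an adjusted p under 0.05. In KO hearts the called genes were again Ace, Edn3 and Ednrb, higher, and Nr3c2, lower, where 34.3% of all genes were called. Without Ctrl TAC 2 and the library labelled KO TAC 4, all 4 were still called in both genotypes, at log2 fold changes in Ctrl and KO of 0.90 and 1.26 for Ace, 2.11 and 1.63 for Edn3, 0.54 and 0.85 for Ednrb, and -0.66 and -0.47 for Nr3c2. The 4 TAC libraries did not overlap the 4 sham libraries for these 4 genes in either genotype, against 20.5% of all genes in Ctrl and 34.6% in KO. Averaged over genotypes (41.5% of all genes called), the same 4 genes were called, and for Ace, Edn3 and Ednrb all 8 TAC libraries lay above all 8 sham libraries, against 11.5% of all genes that separated in either direction. KO sham and Ctrl sham differed in none of the 9 genes by edgeR, where 0.0% of all genes were called. Of the 9, 1 (Nr3c2) had an unadjusted p under 0.05, as did 2.62% of all genes, and DESeq2 called none of the 9 (0.011% of all genes). No gene separated the sham groups without overlap, against 1.78% of all genes. In TAC hearts 1 gene, Ednrb, was higher in KO than in Ctrl, where 2.68% of all genes were called, and 2 genes separated without overlap (Ednrb and Agt), against 10.5% of all genes. The interaction, which tests whether KO and Ctrl hearts responded differently, was called for none of the 9 by edgeR or DESeq2, where 0.0109% and 0.838% of all genes were called. Agt and Ednrb had an unadjusted p under 0.05 there, as did 11.1% of all genes. The median log2 fold change of the 9 genes was 0.10 in Ctrl and -0.04 in KO, beside 0.00 over all genes in both, since they moved in both directions.

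**Figure D1:**
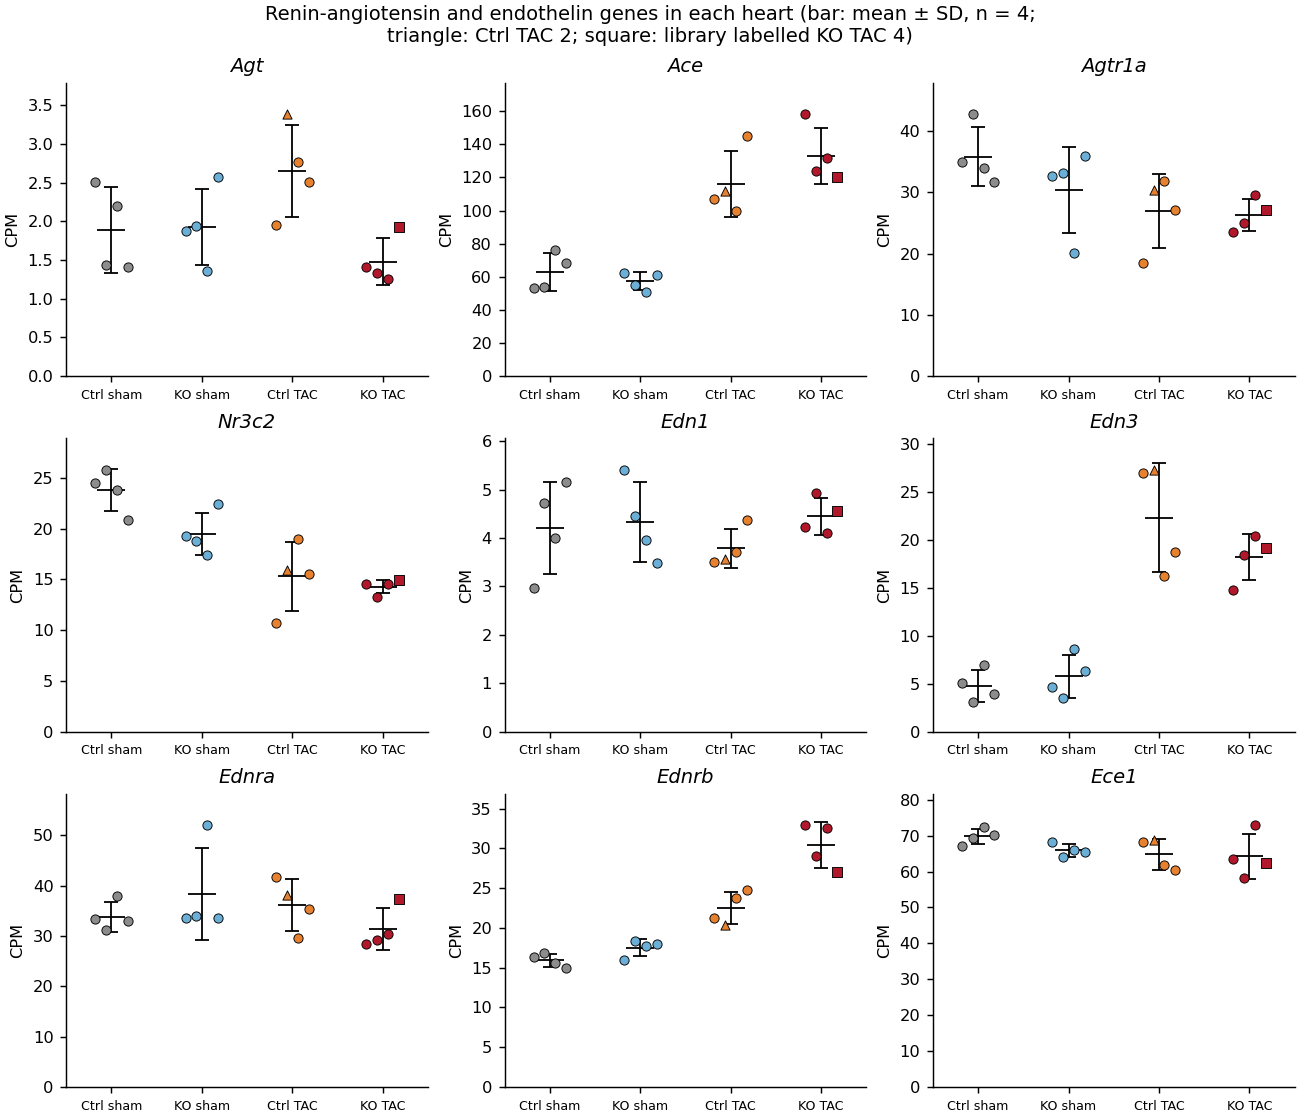
Level of each of the 9 genes in every heart, in CPM on an axis from 0, with a panel per gene and the 4 groups along the axis (points are hearts, bars are mean ± SD, n = 4). Ace, Edn3 and Ednrb sit higher and Nr3c2 lower in both TAC groups, and Ednrb is highest in KO TAC, at 27.0 to 32.9 CPM.

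**Figure D2:**
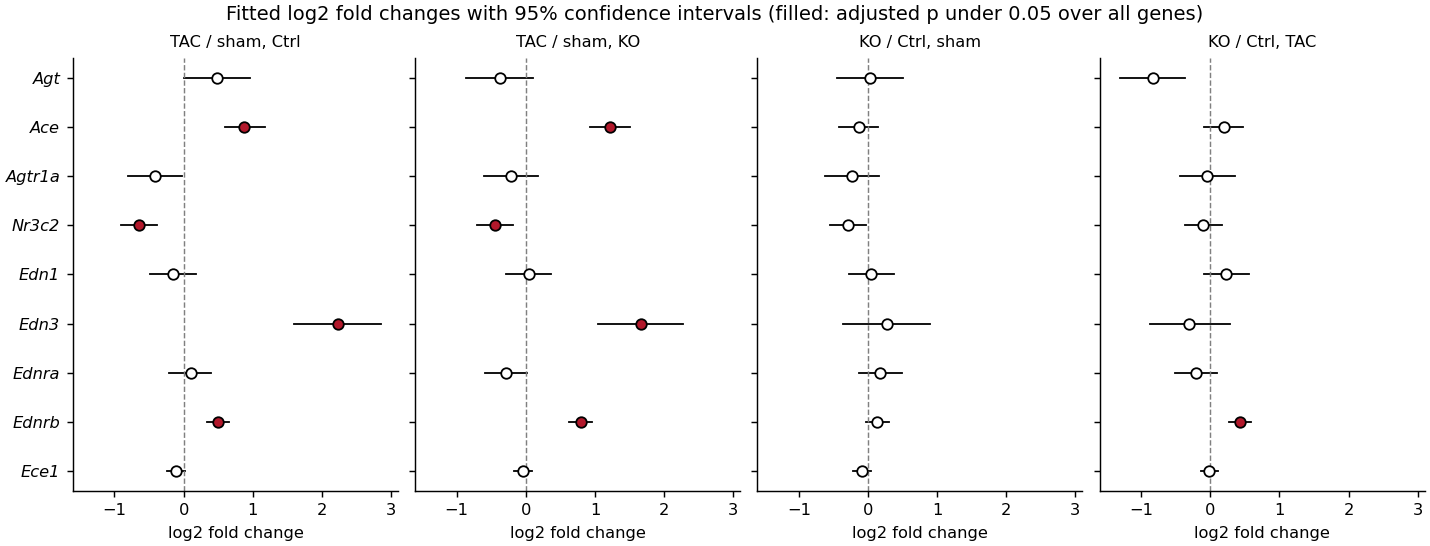
Fitted log2 fold change of each gene (points) with its 95% confidence interval (lines) for TAC against sham in each genotype and for KO against Ctrl in each surgery, filled where the adjusted p over all genes was under 0.05. The filled points are Ace, Nr3c2, Edn3 and Ednrb in both TAC panels and Ednrb alone in the panel of KO against Ctrl in TAC.

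Agt (ENSMUSG00000031980, chr8:124556534-124569706, minus strand) encodes the angiotensin precursor, which is made mostly in liver. It was the least abundant of the 9 genes per kilobase in every group and rested on 72 to 226 counts per library. In libraries 1 to 4 it stood at 2.51, 1.44, 2.20 and 1.41 CPM in Ctrl sham and at 1.87, 1.94, 1.36 and 2.57 CPM in KO sham. In Ctrl TAC it stood at 1.95, 3.38, 2.77 and 2.51 CPM, and in KO TAC at 1.41, 1.33, 1.26 and 1.93 CPM. All 4 KO TAC libraries lay below all 4 Ctrl TAC libraries, by a margin of 1.93 against 1.95 CPM at the nearest pair, and each TAC group overlapped its sham group. The fitted log2 fold change between KO TAC and Ctrl TAC was -0.83 (95% confidence interval -1.31 to -0.36, 0.561-fold), which edgeR placed just outside the threshold (unadjusted p = 0.0017, adjusted p = 0.0543). TAC against sham gave a log2 fold change of 0.49 (0.01 to 0.96, adjusted p = 0.144) in Ctrl and of -0.38 (-0.86 to 0.11, adjusted p = 0.226) in KO. The difference between these responses was -0.86 (-1.54 to -0.19) and was not called (adjusted p = 0.332).

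The Agt difference moved with the libraries that stood apart and with others. With each of the 16 libraries left out in turn, it ran from -0.99 to -0.70 by edgeR and was called in 4 fits. It was -0.95 without Ctrl TAC 1 (adjusted p = 0.0378) and -0.76 without KO TAC 3 (adjusted p = 0.154). Ctrl TAC 2, with the hepatocyte markers at 73.5 CPM, was also the library with the highest Agt level. Without it the fold change between the TAC groups was -0.70 on the log2 scale (edgeR, adjusted p = 0.193). Over all 16 libraries the Pearson correlation of Agt with Alb (log2 CPM, points sharing the 4 groups) was 0.45, and over the 15 libraries without Ctrl TAC 2 it was -0.01. The library labelled KO TAC 4 had the highest Agt of its group, and leaving it out gave -0.99 (adjusted p = 0.0413). Without both libraries it was -0.85 (adjusted p = 0.122). The uncalled rise of Agt after TAC in Ctrl was 0.35 without Ctrl TAC 2 (adjusted p = 0.339), and the interaction was then -0.72 (adjusted p = 0.524). Among animals with numbers starting with 25, Agt averaged 2.88 CPM in 3 Ctrl TAC libraries. In the single KO TAC library of that series Agt was 1.93 CPM. That library is the one labelled KO TAC 4, whose 377 Cardinal counts lay within the range of the control libraries. Among the others Agt was 1.95 CPM in the single Ctrl TAC library and averaged 1.33 CPM in 3 KO TAC libraries. Libraries labelled KO were lower within both, but in the first series this rests on KO TAC 4 alone. With the number series as a term the difference was -0.57 (adjusted p = 0.311). With that term the change after TAC was 0.06 in Ctrl (adjusted p = 0.93) and -0.54 in KO (adjusted p = 0.0636). With a term for numbers starting with 33 instead, the change in KO was -0.77 and was called (adjusted p = 0.0397). Numbers starting with 33 belong to Ctrl sham 4 and to KO sham 1, 2 and 3, and to no TAC heart. KO sham 4, the only KO sham library outside that series, had the highest Agt of the sham hearts. Without KO sham 4, and with no such term, the change in KO was -0.21 (edgeR, adjusted p = 0.551). Over the 24 alternatives that keep the threshold of 0.05, the adjusted p between KO TAC and Ctrl TAC ranged from 0.0148 (DESeq2) to 0.311 and passed the threshold in 7.

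**Figure D3:**
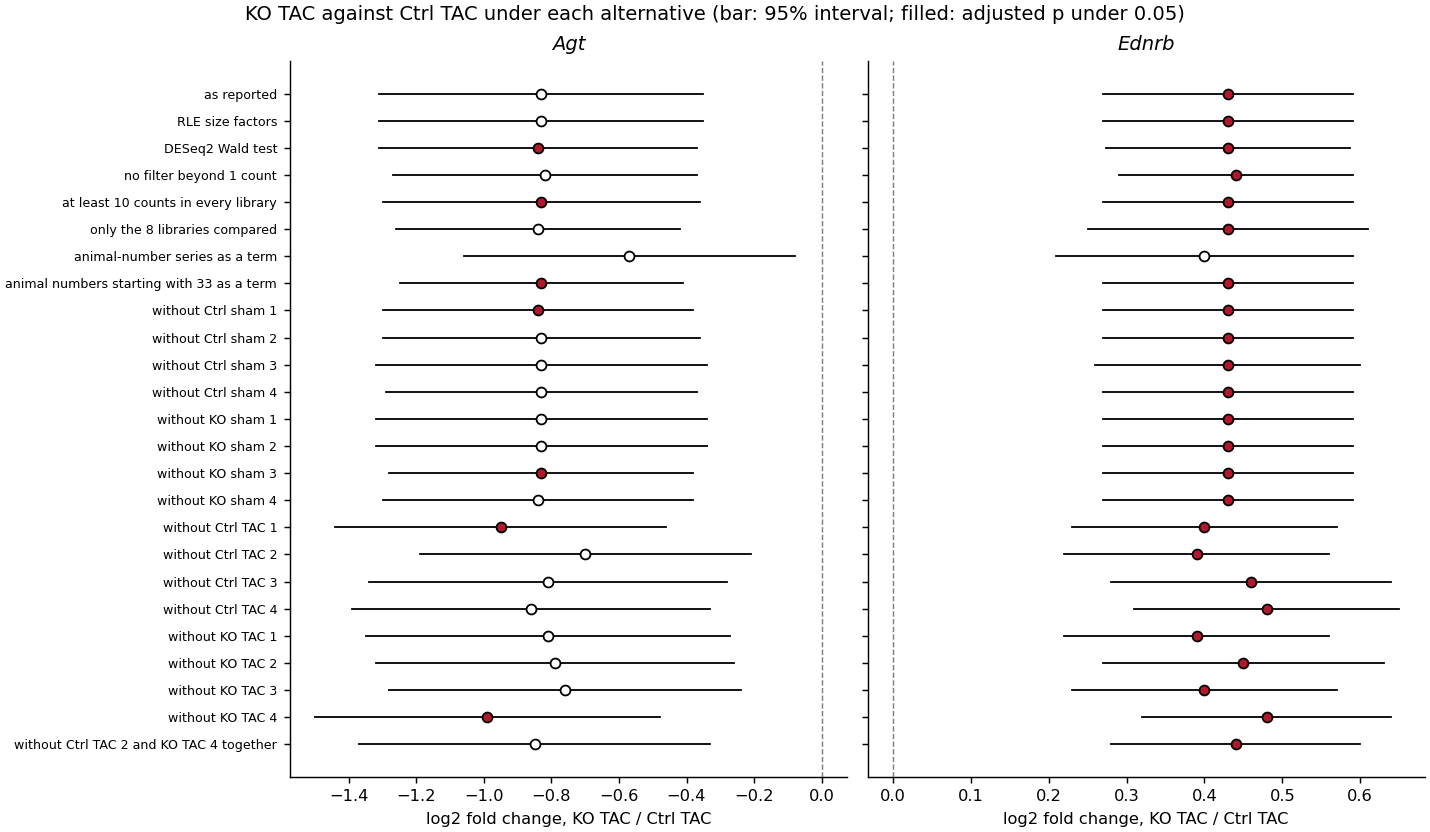
Log2 fold change of Agt (left) and Ednrb (right) between KO TAC and Ctrl TAC as reported and under each alternative (rows), with 95% intervals, filled where the adjusted p was under 0.05. Agt stays below 0 throughout, between -0.57 and -0.99, and is filled in 7 of the alternatives, whereas Ednrb stays between 0.39 and 0.48 and is open in 1 row, with a term for the animal-number series.

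Ace (ENSMUSG00000020681, chr11:105967945-105989964, plus strand) encodes the enzyme that makes angiotensin II and also breaks down bradykinin. It was the renin-angiotensin gene with the largest rise after TAC among those described. Ace stood at 53.4, 53.7, 76.0 and 68.5 CPM in Ctrl sham and at 107, 112, 100 and 145 CPM in Ctrl TAC. In KO hearts it stood at 62.5, 54.9, 50.8 and 60.9 CPM after sham surgery and at 158, 124, 132 and 120.0 CPM after TAC. Every TAC heart exceeded every sham heart, whatever the genotype. The log2 fold change was 0.88 (95% confidence interval 0.60 to 1.17, 1.85-fold, adjusted p = 0.000256) in Ctrl and 1.22 (0.93 to 1.51, 2.32-fold, adjusted p = 5.68e-06) in KO by edgeR, and both were called in all 24 alternatives. KO TAC and Ctrl TAC overlapped and differed by 0.20 (-0.09 to 0.48, adjusted p = 0.462). The interaction, 0.33 (-0.07 to 0.74), was not called (adjusted p = 0.543). Ace lies over 295 exon bases of an antisense gene, Gm11651, which held 39 counts in all 16 libraries beside 96125 for Ace.

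In bulk tissue, more or fewer cells of a type and more or less RNA per cell cannot be told apart, so the markers of the cells known to carry Ace are given beside it. The 12 endothelial markers summed to 1540 to 1680 CPM in Ctrl sham, 1650 to 1820 CPM in KO sham, 1530 to 1810 CPM in Ctrl TAC and 1530 to 1650 CPM in KO TAC. Their median log2 fold change was 0.01 in Ctrl and 0.00 in KO, and 1 of the 12 was called higher after TAC in KO. Beside this and the marker counts that follow, 10.4% of all genes were called higher after TAC in Ctrl and 17.8% in KO. The 5 genes taken as endocardial markers were Npr3, Cdh11, Plvap, Vwf and Nrg1. Whether they mark only the endothelium that lines the chambers was not tested, and Vwf had the highest level, at group means of 40.1 to 56.0 CPM. Together the 5 summed to 63.9 to 80.0 CPM in Ctrl sham and 63.8 to 73.9 CPM in KO sham. After TAC they summed to 67.4 to 96.6 CPM in Ctrl and 84.5 to 123 CPM in KO. Of these, 2 of 5 were called higher after TAC in Ctrl and 5 of 5 in KO, with median log2 fold changes of 0.51 and 0.68. Fibroblast markers moved with Ace: 5 of 10 were higher after TAC in Ctrl and 8 of 10 in KO, and 4 of 6 and 5 of 6 activated fibroblast markers were higher. Macrophage markers were higher for 6 of 10 in Ctrl and 10 of 10 in KO. The part of these cells in the level of Ace was not tested.

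Agtr1a (ENSMUSG00000049115, chr13:30336441-30382867, plus strand), the main angiotensin II receptor of the heart and vessels, had lower means after TAC without passing the test. It stood at 34.9, 42.7, 33.9 and 31.7 CPM in Ctrl sham and at 18.4, 30.3, 31.8 and 27.1 CPM in Ctrl TAC. In KO hearts it stood at 32.6, 33.2, 20.1 and 35.9 CPM after sham surgery and at 23.5, 25.0, 29.5 and 27.1 CPM after TAC. The groups overlapped, with a low library in both Ctrl TAC (library 1) and KO sham (library 3). The log2 fold change after TAC was -0.41 (-0.80 to -0.02, adjusted p = 0.135) in Ctrl and -0.21 (-0.61 to 0.18, adjusted p = 0.406) in KO. Averaged over genotypes it was -0.31 (-0.59 to -0.04, adjusted p = 0.0671), and 5 of 23 alternatives called it, among them the fit without KO sham 3, at -0.39 (adjusted p = 0.00745). With the number series as a term it was -0.51 (adjusted p = 0.0267), and the change in Ctrl was -0.71 (adjusted p = 0.0654). Without Ctrl TAC 1 the change in Ctrl was -0.27 (adjusted p = 0.3).

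Nr3c2 (ENSMUSG00000031618, chr8:76899442-77245012, plus strand), the receptor for aldosterone and corticosterone, fell after TAC in both genotypes. It stood at 24.5, 25.8, 23.8 and 20.9 CPM in Ctrl sham and at 10.7, 15.9, 19.0 and 15.5 CPM in Ctrl TAC. In KO hearts it stood at 19.3, 18.8, 17.4 and 22.4 CPM after sham surgery and at 14.5, 13.3, 14.5 and 14.9 CPM after TAC. All TAC libraries lay below the sham libraries of their own genotype, but Ctrl TAC 3 (19.0 CPM) exceeded 2 KO sham libraries. The log2 fold change was -0.64 (95% confidence interval -0.90 to -0.38, 0.642-fold, adjusted p = 0.00151) in Ctrl and -0.45 (-0.71 to -0.18, 0.734-fold, adjusted p = 0.0103) in KO. Both were called in all 24 alternatives that keep the threshold of 0.05, and the call in KO was lost at a threshold of 0.01. Without Ctrl TAC 1, the lowest library, the change in Ctrl was -0.50. KO sham hearts averaged 19.5 ± 2.08 CPM (SD, n = 4) against 23.8 ± 2.05 CPM in Ctrl sham, a log2 fold change of -0.29 (-0.55 to -0.03) by edgeR (unadjusted p = 0.0321, adjusted p = 1.0). The interaction was 0.19 (-0.18 to 0.56, adjusted p = 0.736). The 10 cardiomyocyte markers summed to 65100 to 74000 CPM in Ctrl sham and 66600 to 71900 CPM in KO sham. After TAC they summed to 58600 to 63300 CPM in Ctrl and 51700 to 53700 CPM in KO. Of these markers, 5 of 10 were lower after TAC in Ctrl and 7 of 10 in KO, beside 9.6% and 16.5% of all genes. Myh6, the largest part of the sum, averaged 24600 CPM in Ctrl sham and 20000 CPM in Ctrl TAC. In KO hearts Myh6 averaged 23700 CPM after sham surgery and 15300 CPM after TAC. Actc1, Ttn and Mb were called lower in neither genotype. The part of cardiomyocytes in the level of Nr3c2 was not tested.

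Edn1 (ENSMUSG00000021367, chr13:42301476-42307990, plus strand) encodes the vasoconstrictor endothelin of endothelium. Its level was low, at 198 to 379 counts per library, and no contrast called it. It stood at 2.97, 4.72, 4.01 and 5.16 CPM in Ctrl sham and at 3.5, 3.56, 3.72 and 4.37 CPM in Ctrl TAC. In KO hearts it stood at 5.41, 4.46, 3.96 and 3.48 CPM after sham surgery and at 4.22, 4.94, 4.10 and 4.57 CPM after TAC. The 4 groups overlapped. The log2 fold change after TAC was -0.15 (-0.48 to 0.18, adjusted p = 0.568) in Ctrl and 0.04 (-0.29 to 0.37, adjusted p = 0.873) in KO by edgeR, so that these intervals allow a rise of up to 0.37 on the log2 scale.

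Edn3 (ENSMUSG00000027524, chr2:174760619-174784042, plus strand), the ligand gene known for its role in neural crest cells, showed the largest change of the 9 genes. In Ctrl sham it stood at 5.07, 3.11, 6.98 and 3.89 CPM. In Ctrl TAC it stood at 27.0, 27.3, 16.2 and 18.7 CPM. In KO hearts it stood at 4.63, 3.53, 8.61 and 6.27 CPM after sham surgery and at 14.8, 18.4, 20.4 and 19.2 CPM after TAC. The lowest TAC heart (14.8 CPM) lay above the highest sham heart (8.61 CPM). The log2 fold change was 2.23 (95% confidence interval 1.60 to 2.85, 4.68-fold, adjusted p = 0.000106) in Ctrl and 1.66 (1.05 to 2.27, 3.16-fold, adjusted p = 0.000445) in KO by edgeR, and both were called in all 24 alternatives. Ctrl TAC 2 (27.3 CPM) stood next to Ctrl TAC 1 (27.0 CPM). Schwann cell and neuron markers, which belong to neural crest derivatives, summed to 10.4 to 11.8 CPM in Ctrl sham and 10.4 to 12.5 CPM in KO sham. In KO TAC their sum ran from 6.44 to 9.52 CPM. In Ctrl TAC it ran from 7.42 to 25.1 CPM, the latter in Ctrl TAC 2. Which cells carry Edn3 in these hearts, and the part of any cell type in its level, was not tested. KO TAC and Ctrl TAC overlapped (-0.30, interval -0.87 to 0.28, adjusted p = 0.61), and the smaller mean response in KO was not called as a difference (interaction -0.57, interval -1.42 to 0.29, adjusted p = 0.64).

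Ece1 (ENSMUSG00000057530, chr4:137862237-137965229, plus strand), the protease that releases active endothelins, ran from 58.1 to 72.9 CPM over the 16 hearts, the narrowest range of the 9 genes relative to its level. It averaged 69.8 ± 2.19 CPM in Ctrl sham, 65.9 ± 1.77 CPM in KO sham, 64.8 ± 4.31 CPM in Ctrl TAC and 64.2 ± 6.22 CPM in KO TAC (SD, n = 4). The groups overlapped, and the 95% intervals of both TAC effects lay between -0.24 and 0.09 on the log2 scale (adjusted p = 0.247 in Ctrl and 0.682 in KO by edgeR). Averaged over genotypes the change after TAC was -0.07 (-0.16 to 0.02, adjusted p = 0.198 by edgeR). It was called in 1 of 23 alternatives, the fit without KO TAC 3, at -0.11 (edgeR, adjusted p = 0.0335). KO TAC and Ctrl TAC differed by -0.01 (-0.14 to 0.12, adjusted p = 0.947).

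Ednra (ENSMUSG00000031616, chr8:77663031-77724464, minus strand) encodes the constrictor receptor of smooth muscle and other mural cells. It stood at 33.3, 31.1, 38.0 and 33 CPM in Ctrl sham and at 41.7, 38.2, 29.5 and 35.3 CPM in Ctrl TAC. In KO hearts it stood at 33.6, 34, 52.0 and 33.6 CPM after sham surgery and at 28.4, 29.2, 30.4 and 37.4 CPM after TAC. KO sham 3 lay far above the other hearts, and the groups overlapped. No contrast called Ednra, with a log2 fold change after TAC of 0.10 (-0.21 to 0.40, adjusted p = 0.706) in Ctrl and of -0.29 (-0.59 to 0.02, adjusted p = 0.139) in KO by edgeR. It shares 91 exon bases with 4933431K23Rik on the opposite strand, a gene with 2902 counts beside 35526 for Ednra, and whether the counting used strand is not given.

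Ednrb (ENSMUSG00000022122, chr14:103814625-103844402, minus strand), the receptor that clears endothelins and relaxes vessels through endothelium, rose after TAC and was the only gene of the 9 called between the genotypes. It stood at 16.4, 16.9, 15.6 and 15 CPM in Ctrl sham and at 15.9, 18.4, 17.7 and 18 CPM in KO sham. After TAC it stood at 21.2, 20.4, 23.7 and 24.8 CPM in Ctrl and at 32.9, 29.0, 32.6 and 27.0 CPM in KO. The sham groups overlapped, Ctrl TAC lay above both, and KO TAC lay above Ctrl TAC with no overlap. The log2 fold change after TAC was 0.50 (95% confidence interval 0.34 to 0.66, 1.41-fold, adjusted p = 0.000161) in Ctrl and 0.80 (0.63 to 0.96, 1.74-fold, adjusted p = 3.7e-07) in KO by edgeR, and both were called in all 24 alternatives. KO TAC exceeded Ctrl TAC by 0.43 (0.27 to 0.59, 1.35-fold, adjusted p = 0.0109). The interaction, 0.30 (0.07 to 0.53), had an unadjusted p of 0.0132 and was not called (adjusted p = 0.325), so a larger response in KO was not shown by the test of the difference.

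The difference in Ednrb between KO TAC and Ctrl TAC was called in 23 of the 24 alternatives that keep the threshold of 0.05, and was lost at a threshold of 0.01. It was 0.48 when the library labelled KO TAC 4 was left out (adjusted p = 0.00807), and without Ctrl TAC 2 it was 0.39 (adjusted p = 0.0473). Among animals with numbers starting with 25, Ednrb averaged 22.9 CPM in 3 Ctrl TAC libraries. In the single KO TAC library of that series Ednrb was 27.0 CPM. That library is the one labelled KO TAC 4, whose 377 Cardinal counts lay within the range of the control libraries. Among the others Ednrb was 21.2 CPM in the single Ctrl TAC library and averaged 31.5 CPM in 3 KO TAC libraries. With the number series as a term the difference was 0.40 and lost its call (adjusted p = 0.0993). Activated fibroblast markers were also higher in KO TAC: their sum was 202 to 349 CPM in Ctrl TAC and 539 to 658 CPM in KO TAC. Of these, 4 of 6 were called higher in KO TAC than in Ctrl TAC, beside 1.36% of all genes. Of the 10 general fibroblast markers, only 1 was called higher in KO TAC, with a median log2 fold change of 0.31. Postn, the periostin gene of activated fibroblasts, had a log2 fold change of 1.21 there (adjusted p = 0.0102 by edgeR). For markers of cells that can carry Ednrb, the median log2 fold change between KO TAC and Ctrl TAC was -0.01 over 12 endothelial, 0.33 over 5 endocardial, 0.18 over 10 macrophage and 0.03 over 10 smooth muscle and pericyte genes. Over 6 Schwann cell and neuron genes the median was -0.58. The part of these cells in the Ednrb difference was not tested.

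Levels were compared between genes as CPM per kilobase of annotated exon. In Ctrl sham hearts Ece1 (13.2), Agtr1a (12.8) and Ace (11.9) led, with overlapping ranges. Ednra followed at 6.18, then Ednrb (3.74) and Nr3c2 (3.67), which overlapped, and last Edn1 (1.97), Edn3 (1.16) and Agt (0.998), of which each overlapped the next. In KO TAC hearts Ace led at 25.2, above and clear of Ece1 (12.1) and Agtr1a (9.42). Ednrb (7.12) there stood beside Ednra (5.73) with overlapping ranges, and Edn3 (4.42) was clear of Nr3c2 (2.20), Edn1 (2.08) and Agt (0.784). The order in Ctrl TAC began with Ace (22), Ece1 (12.2), Agtr1a (9.65) and Ednra (6.60), and Edn3 (5.43) and Ednrb (5.28) overlapped.

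The balance between partner genes is given as a description, from levels per kilobase in each heart. The ratio of Ednrb to Ednra ran from 0.526 to 0.697 in Ctrl sham, 0.436 to 0.693 in KO sham, 0.654 to 1.03 in Ctrl TAC and 0.925 to 1.49 in KO TAC. It exceeded 1 in 1 Ctrl TAC heart and in 3 KO TAC hearts, and the library labelled KO TAC 4 had the lowest ratio of its group. The ratio of Edn3 to Edn1 ran from 0.343 to 0.906 in Ctrl sham and 0.412 to 1.13 in KO sham, and from 2.22 to 4.02 in Ctrl TAC and 1.82 to 2.59 in KO TAC. All TAC hearts had more Edn3 than Edn1 per kilobase. RNA ratios say nothing of the amounts of peptide or protein.

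**Figure D4:**
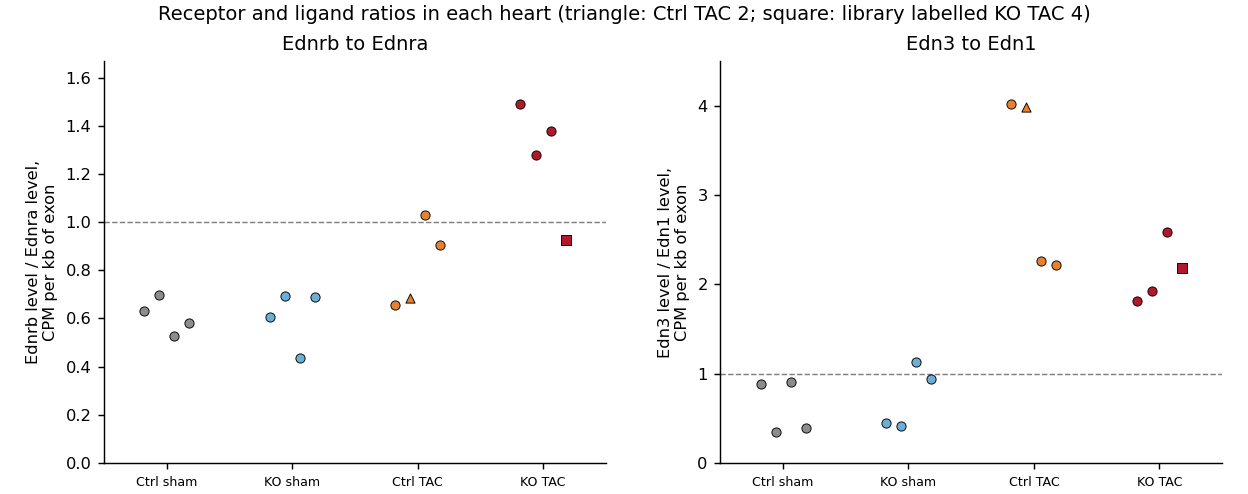
Ratio of Ednrb to Ednra (left) and of Edn3 to Edn1 (right) in each heart, from CPM per kilobase of exon, on axes from 0 with a dashed line at 1. The Ednrb to Ednra ratio reaches 1.28 to 1.49 in 3 KO TAC hearts and 0.925 in the library labelled KO TAC 4, and the Edn3 to Edn1 ratio is above 1 in all 8 TAC hearts.

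Beyond these genes, 34 other genes of the same pathways were examined, of which 22 passed the filter. In Ctrl hearts 2 were higher after TAC (Prep, Dpp3) and 2 lower (Mme, Hsd11b1), or 4 of 22 beside 20.0% of all genes. In KO hearts 7 were higher (Atp6ap2, Ctsd, Prcp, Prep, Dpp3, Nln, Ece2) and 5 lower (Mas1, Mme, Lnpep, Rnpep, Hsd11b1), or 12 of 22 beside 34.3% of all genes. Between KO TAC and Ctrl TAC 2 were lower (Mme, Hsd11b1) beside 2.68% of all genes, and neither edgeR nor DESeq2 called any of them in the interaction, beside 0.0109% and 0.838% of all genes. There 5 of 22 had an unadjusted p under 0.05 (Mme, Hsd11b1, Atp6ap2, Lnpep and Prcp), beside 11.1% of all genes. Cardiac renin itself was not seen: Ren1 had 0 counts in all 16 libraries, which allows up to 0.0378 to 0.0564 CPM per library by a floor of 3 counts. Agtr1b had at most 2 counts, Agtr2 at most 3 and Edn2 at most 4 in any library.

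Mme encodes neprilysin, which degrades angiotensins, natriuretic peptides and endothelins. Its 4 libraries stood at 15.4, 12.2, 17.0 and 13.4 CPM in Ctrl sham and at 6.28, 7.49, 8.61 and 6.60 CPM in Ctrl TAC. In KO they stood at 12.1, 11.4, 11.5 and 15.5 CPM after sham surgery and at 4.89, 4.68, 3.84 and 4.36 CPM after TAC. Neprilysin RNA fell after TAC by 1.00 on the log2 scale in Ctrl (adjusted p = 2.09e-05) and by 1.51 in KO (adjusted p = 1.02e-07), and KO TAC lay below Ctrl TAC with no overlap (-0.71, adjusted p = 0.0131 by edgeR). Hsd11b1, which regenerates active glucocorticoid, a ligand of the Nr3c2 receptor, ran from 15.2 to 18.9 CPM over the sham hearts, from 9.66 to 10.4 CPM in Ctrl TAC and from 7.61 to 7.91 CPM in KO TAC, with no overlap between these ranges. It fell after TAC by 0.78 in Ctrl (adjusted p = 8.14e-07) and by 1.14 in KO (adjusted p = 5.53e-09), and KO TAC was lower than Ctrl TAC by a log2 fold change of -0.38 (adjusted p = 0.0154). Both calls between KO TAC and Ctrl TAC were lost with the number series as a term, without KO TAC 3, and without Ctrl TAC 2 and the library labelled KO TAC 4 together. Hsd11b1 also lost its call without Ctrl TAC 2 (adjusted p = 0.0568), and Mme had an adjusted p of 0.0509 without KO TAC 3.

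Mas1, a receptor for angiotensin fragments, was scarce (9 to 67 counts per library). It fell after TAC by 1.39 in KO (adjusted p = 0.00429), and the change in Ctrl was -0.57 (adjusted p = 0.259). The 2 responses were not shown to differ (adjusted p = 0.551). Ece2, a second endothelin-converting enzyme, rose in KO by a log2 fold change of 1.03 (adjusted p = 0.000279), with 0.52 (adjusted p = 0.0578) in Ctrl, and shares 2937 exon bases with Gm49333, which held 7 counts. Prcp, a peptidase that cuts angiotensin II, rose in KO by 0.62 (adjusted p = 0.000105), with 0.28 (adjusted p = 0.0542) in Ctrl. Dpp3, which degrades angiotensin II, rose by 0.44 in Ctrl (adjusted p = 0.000259) and 0.54 in KO (adjusted p = 1.68e-05).

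**Figure D5:**
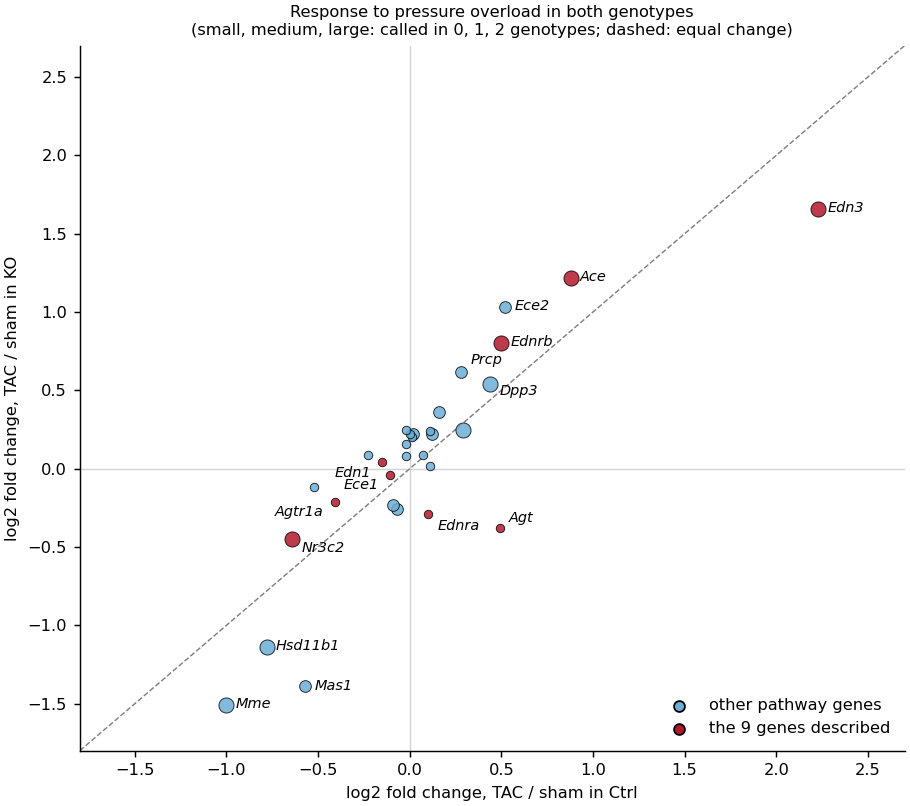
Log2 fold change after TAC in Ctrl (horizontal) and in KO (vertical) for the 9 genes (red) and the 22 other pathway genes tested (blue), point size giving the number of genotypes in which the gene was called, and the dashed line equal change. Edn3 lies furthest out, at 2.23 and 1.66, Ace and Ednrb lie at upper right, and Mme, Hsd11b1 and Mas1 at lower left.

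Among the 10120 named genes that averaged 2 or more in log2 CPM, those whose level over the 16 libraries was most like a called gene were listed by Pearson correlation of log2 CPM. The points share the 4 groups, so that genes that respond to TAC are alike by that alone. For Ace they were Svep1 (0.982), Zyx (0.975) and Col4a3 (0.973). For Nr3c2 they were Entpd5 (0.965), Rgs7bp (0.961) and Zadh2 (0.961). Edn3 was most like Dok7 (0.967), Syk (0.956) and Hagh (0.953), and Ednrb was most like F2r (0.967), Fbln5 (0.959) and Fam114a1 (0.955). Among the 9 genes, Ace, Edn3 and Ednrb correlated at 0.75 to 0.86 over the 16 libraries. Once the group means were taken off, the correlation of Ace was 0.02 with Edn3 and 0.13 with Ednrb. Agtr1a and Nr3c2 correlated at 0.83 over the libraries and at 0.81 in the deviations from the group means, and Edn3 and Ednra at 0.76 in the deviations.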

How the data were processed

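The authors sequenced paired-end libraries, and their processing notes name cutadapt 2.3, FastQC, HISAT2 2.1.0, edgeR 3.26.1 and the mouse build GRCm38. The counting program, annotation and use of strand are not given in the sources used here. The deposited table holds raw read counts per Ensembl gene, 1 column per library (53169437 to 79404714 counts), which bound the precision by counting error. Symbols and coordinates were taken from GENCODE M21 (99.4% of identifiers matched; unmatched ones held 0.0131% of counts) and the upstream sequences from RefSeq.

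The counts were fitted with edgeR 4.0.16 in R 4.3.3: TMM scaling, filterByExpr, a mean for each of 4 groups over all 16 libraries, robust quasi-likelihood tests of 6 contrasts, and Benjamini-Hochberg adjustment over 18275 genes (called: adjusted p under 0.05). The standard error was the fold change over the root of F, with 95% intervals from t. CPM used TMM-scaled totals, and correlations used log2 CPM with a prior count of 2. Replicate numbers follow accession order and pair nothing. Alternatives were RLE size factors, DESeq2 1.42.0, other count filters, a threshold of 0.01, only the 8 libraries compared, terms for animal numbers starting with 25 or 33, each library left out, and Ctrl TAC 2 with KO TAC 4 left out. Other pathway genes were named by value if they were among the 6 largest called changes after TAC or one of Ren1, Agtr1b, Agtr2, Mas1 and Edn2; 1 further gene of this rule is not reported here. The genes, lists and alternatives were chosen with earlier results of these data known. No column of the table was left out.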

Additional observations from a re-analysis of the deposited data

Results flagged for a closer look

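Ednra in KO sham 3 stood at 52.0 CPM, while the other 3 KO sham hearts lay between 33.6 and 34 CPM. The gap to the nearest heart was 0.978 of the range of the group, above the critical value of Dixon's test for 4 samples. Of 36 groups of 4 hearts examined (9 genes in 4 groups) this was the only such heart, and chance marks about 1 in 20. Without it the log2 fold change of Ednra between KO sham and Ctrl sham was 0.00 (adjusted p = 1.0 by edgeR), against 0.18 with it. The same heart had the lowest Agtr1a (20.1 CPM) and the highest Edn3 (8.61 CPM) of the 8 sham hearts.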

How the results depend on the processing

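The number of the 9 genes called between KO TAC and Ctrl TAC, 1 as reported, was 2 with DESeq2, with at least 10 counts in every library and with the term for numbers starting with 33, was 0 with a term for the animal-number series and at an adjusted p under 0.01, and ran from 1 to 2 with each library left out, the second gene being Agt. DESeq2 called 7.61% of all genes there, against 2.68% by edgeR. Of other pathway genes 2 were called there, against 0 with a term for the series, 0 without both Ctrl TAC 2 and KO TAC 4, and 0 to 2 with each library left out (0 without KO TAC 3 and 1 without Ctrl TAC 2). The other 277 values of such counts and levels moved little.

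Log2 fold changes that turned sign were small and uncalled. With a term for the animal-number series these were Agtr1a (0.18) and Nr3c2 (0.10) between KO TAC and Ctrl TAC and Agt averaged over genotypes (-0.24). With the term for numbers starting with 33 they were Edn1 between the sham groups (-0.16) and averaged (0.16) and Agt averaged (-0.20). Without Ctrl TAC 2 and KO TAC 4 they were Agtr1a (0.01) and Ece1 (0.03) between the TAC groups and Agt averaged (-0.09). With each library left out, the ranges between KO and Ctrl were -0.14 to 0.20 for Agt, -0.09 to 0.15 for Edn1 and 0.00 to 0.24 for Ednra in sham, and -0.18 to 0.06 for Agtr1a, -0.23 to 0.03 for Nr3c2 and -0.08 to 0.03 for Ece1 in TAC. For TAC against sham they were -0.05 to 0.17 for Edn1 and -0.10 to 0.01 for Ece1 in KO, and -0.02 to 0.14 for Agt and -0.12 to 0.01 for Edn1 averaged. Among single genes 14 values gained a call and 3 lost it (Ednrb between KO TAC and Ctrl TAC with the series term and at 0.01, and Nr3c2 after TAC in KO at 0.01), and the change of Agt after TAC in KO was called with the term for 33 (-0.77, adjusted p = 0.0397 by edgeR). The cause was not tested.

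No paired analysis was possible because the labels carry no replicate numbers that link libraries across groups. Agt, Edn1 and Mas1 rest on few counts, so a change of their size is seen less precisely. The number series and the genotype overlap in the TAC hearts (3 of 4 Ctrl TAC and 1 of 4 KO TAC numbers start with 25), and with 4 hearts a group the 2 can be told apart only weakly.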

Other observations

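Some genes were looked at after their values had been seen, and are given as values only. Per3, a gene of the circadian clock, was the gene most like Nr3c2 once group means were taken off: the Pearson correlation of log2 CPM was 0.91 over the 16 libraries and 0.95 in the deviations from the group means. Arntl, a clock gene that peaks opposite to Per3, correlated with Nr3c2 at -0.74 and -0.78 in the same measures. Arntl was scarce, at 0.659 to 3.1 CPM, below the level asked of the genes compared for likeness. Agtr1a correlated with Per3 at 0.88 and, most closely of all genes compared, with Ezr at 0.96. Ctrl TAC 1 had the lowest Per3 (28.9 CPM), the highest Arntl (3.1 CPM), the lowest Nr3c2 (10.7 CPM) and the lowest Agtr1a (18.4 CPM) of the 16 hearts. Without Ctrl TAC 1 and KO sham 3 the correlation of Nr3c2 with Per3 was 0.92 over 14 libraries. The hour at which each heart was taken is not in the labels, and its part in these levels was not tested.

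Over the 16 libraries the correlation of Agt was 0.00 with Ace, 0.26 with Agtr1a and 0.18 with Nr3c2, and in the deviations from the group means it was 0.06, 0.53 and 0.58. Its closest partners in the deviations from the group means were Cpt1b (0.931), Ppip5k2 (0.909) and Gpd1 (0.895), of which Cpt1b and Gpd1 encode enzymes of fat use and glycerol metabolism.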
